A study of Mus musculus with 12 samples.

Results

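The genes described here encode the machinery that fills, docks, fuses and retrieves synaptic vesicles at the presynaptic terminal. They were 33 genes, picked by symbol from the 23183 symbols listed for each library, and all 33 were found. They comprised 9 genes for vesicle proteins, 2 for vesicular glutamate transporters, 6 for synaptotagmins, 8 for SNAREs and their partners, 5 for the active zone and 3 for endocytosis. RNA sequencing had been done on bulk tissue of the hippocampus and prefrontal cortex of 6 male C57BL/6 mice, with 1 library per region and mouse. The 4 groups of 3 libraries were hippocampus after irradiation, hippocampus of controls, prefrontal cortex after irradiation and prefrontal cortex of controls. The irradiated mice had received X-rays to the abdomen, a model of chronic gut injury, and 13 Gy is named only in the library names. The controls were not irradiated, and tissue was taken in the chronic phase, with the time after exposure and the age of the mice not given in the sources used here. Both regions of 1 mouse carry its number, so each region gave 3 independent mice per treatment.

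A vesicle is coated by synapsins, which tether it in the reserve pool, and is loaded with glutamate by a vesicular transporter. RIM, Munc13, Bassoon and Piccolo organise the active zone, the patch of membrane where vesicles dock and are primed. There the vesicle SNARE synaptobrevin zips together with syntaxin and SNAP-25 on the plasma membrane, complexin clamps the assembled bundle, and synaptotagmin triggers fusion when calcium enters. NSF and SNAP proteins then take the SNARE bundle apart, and dynamin, amphiphysin and synaptojanin retrieve the membrane by endocytosis. In forebrain, most of these genes are expressed by nearly all neurons, but several paralogs are restricted to particular neuron types.

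Values are FPKM (fragments normalised to transcript length and library size), so levels can be set beside each other between genes. Differences are log2(FPKM + 1) differences with their standard error, tested two-sided by limma on every gene averaging 1 FPKM or more, and the p-values were adjusted over all those genes by the Benjamini-Hochberg method. A gene is said to be higher or lower in the sense of passing the test where its adjusted p was under 0.05. All 33 genes passed the level filter in each comparison. From the step size of low values, the libraries held an estimated 15.6 M to 19.0 M fragments each. The regional labels held: 8 of 10 dentate and pyramidal cell markers passed as higher in hippocampus than in prefrontal cortex, and 8 of 10 cortical layer markers as lower, in irradiated and in control mice. Striatal markers summed to 82.3 to 122 FPKM in hippocampus against 878 to 936 FPKM in prefrontal cortex of irradiated mice, and to 111 to 131 FPKM in hippocampus against 839.8 to 1095 FPKM in prefrontal cortex of control mice, so these markers were well above 0 in the cortex libraries. Choroid plexus markers summed to 3132 and 4657 FPKM in 2 irradiated hippocampi and to 65.2 FPKM in that of irradiated mouse 2, against 3746 to 5860 FPKM in control hippocampi.

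Snap25, the plasma membrane SNARE that pairs with syntaxin, had the highest level of the set in both regions, and averaged 1185 ± 38.7 FPKM in the hippocampus of control mice against 1634 ± 68.1 FPKM in their prefrontal cortex (SD, n = 3 mice per group throughout). Below it came Syp (synaptophysin, an abundant vesicle membrane protein), Vamp2 (synaptobrevin 2, the vesicle SNARE of forebrain) and Slc17a7 (VGLUT1, the glutamate transporter of cortical and hippocampal neurons), which averaged between 524 and 638 FPKM in control tissue of either region. Syp and Vamp2 overlapped between libraries in control prefrontal cortex, and Vamp2 and Slc17a7 did so in control hippocampus, so those neighbours have no firm order. The 4 lowest genes were Syt2, Slc17a6 (VGLUT2, the transporter of thalamic and other subcortical neurons), Syn3 and Sv2c, which averaged 3.3 to 4.7 FPKM in the hippocampus of control mice and 4.2 to 11.2 FPKM in their prefrontal cortex. Within a region, the large active zone scaffolds were low, with Pclo (Piccolo) at 23.1 ± 5.1 FPKM and Bsn (Bassoon) at 42.3 ± 7.67 FPKM in control hippocampus, against 27.5 ± 3.73 FPKM and 56.2 ± 6.04 FPKM in control prefrontal cortex.

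**Figure D1:**
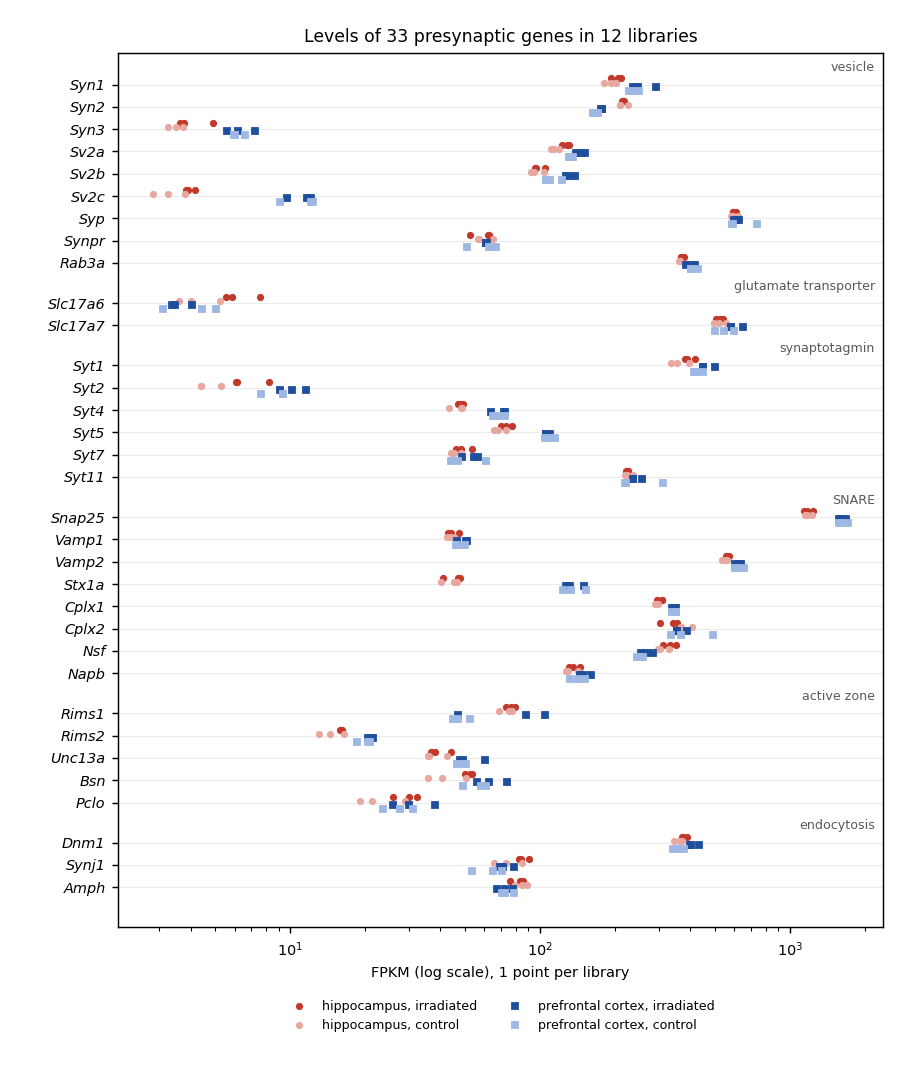
FPKM of the 33 genes on a log scale, 1 point per library, with irradiated and control hippocampus in dark and pale red circles and irradiated and control prefrontal cortex in dark and pale blue squares, grouped by role. Snap25 is the highest gene, the circles of Stx1a and Sv2c lie well to the left of their squares, and the irradiated and control points of a region lie close together for most genes.

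The set differed between the regions in both treatments. In irradiated mice 16 of 33 genes passed the test between hippocampus and prefrontal cortex, 4 higher and 12 lower in hippocampus, where 29.2% of 12878 genes passed, 13.9% as higher and 15.3% as lower. In control mice 19 of 33 passed, 3 higher and 16 lower in hippocampus, where 30.3% of 12923 genes passed, 15.7% as higher and 14.6% as lower. The median difference over the 33 genes was -0.15 in irradiated and -0.19 in control mice, against 0.00 and 0.01 over all genes tested. All libraries of hippocampus lay above those of prefrontal cortex for 4 genes and below them for 21 in irradiated mice, where 44.8% of all genes were apart, 21.4% above and 23.4% below. In control mice they lay above for 4 genes and below for 17, where 45.7% of all genes were apart, 23.7% above and 22% below. With the mouse as a block, since both regions came from the same mice, 22 of 33 genes passed in irradiated mice (35.9% of all genes) and 19 in control mice (33.5%). In irradiated mice the block added Slc17a7 (adjusted p = 0.0215), Syt1 (0.00899), Cplx1 (0.0249), Napb (0.0374), Bsn (0.023) and Amph (0.0223) by limma. In control mice it added Synj1 (adjusted p = 0.0357) and lost Rab3a (0.0524). The values that follow are without the block, and calls that it changes are named with their gene. The 2 comparisons rest on different mice. They had 13 called genes in common, which is 81.2% of those called in irradiated mice and 68.4% of those called in control mice. Dnm1, the dynamin of synaptic endocytosis, was the 1 gene of 33 whose difference changed sign, at -0.12 in irradiated and 0.00 in control mice, neither past the test.

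In tissue of mixed cells, fewer neurons and less of an RNA per neuron cannot be told apart. Of 12 general neuron markers, 9 had negative and 3 positive differences in each treatment. In irradiated mice 6 of 12 passed as lower in hippocampus and none as higher, beside 15.3% and 13.9% of all genes. In control mice 6 passed as lower and 1 as higher, beside 14.6% and 15.7% of all genes. Their summed level was 2142 to 2203 FPKM in hippocampus and 2506 to 2592 FPKM in prefrontal cortex of irradiated mice, and 2186 to 2214 FPKM in hippocampus and 2492 to 2635 FPKM in prefrontal cortex of control mice. Of the oligodendrocyte markers, 8 of 8 passed as higher in hippocampus of irradiated mice and 7 of 8 in control mice, beside 13.9% and 15.7% of all genes. They summed to 2096 to 2221 FPKM in hippocampus against 1458 to 1609.6 FPKM in prefrontal cortex of irradiated mice, and to 2281 to 2793 FPKM against 1712 to 1870.1 FPKM in control mice. None of these markers was at 0, and their part in the regional differences was not tested.

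**Figure D2:**
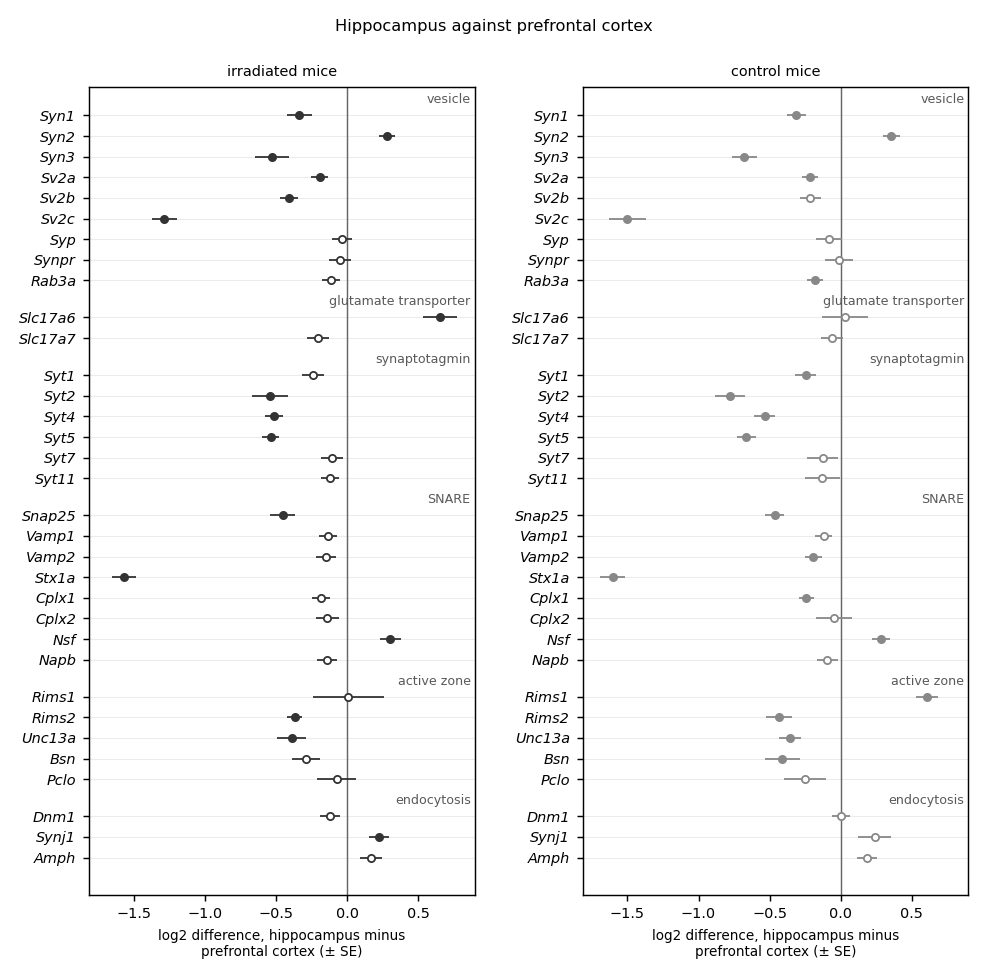
Log2 difference between hippocampus and prefrontal cortex (± SE, n = 3 mice per group) for the 33 genes by role, in irradiated mice on the left and control mice on the right, filled where the adjusted p was under 0.05. Most points lie left of 0, Stx1a and Sv2c farthest. Rims1 stands at 0.01, with a wide error, in irradiated mice and at 0.61 in control mice.

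The largest regional difference in the set was that of Stx1a, which encodes syntaxin 1A, a plasma membrane SNARE. It had 47.7, 47.2 and 40.9 FPKM in irradiated hippocampus, against 127, 150.3 and 132 FPKM in the prefrontal cortex of the same mice. In control mice it had 45.5, 46.7 and 40.3 FPKM in hippocampus, against 152, 133 and 124 FPKM in prefrontal cortex. Every hippocampus lay far below every prefrontal cortex. The log2 difference was -1.57 ± 0.09 in irradiated mice (0.332-fold, adjusted p = 1.37e-05) and -1.60 ± 0.09 in control mice (0.324-fold, adjusted p = 2.48e-06).

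Sv2c encodes the least widespread of the SV2 vesicle glycoproteins, which in mouse forebrain is best known from the striatum and other basal ganglia. It had 3.92, 4.18 and 3.85 FPKM in irradiated hippocampus, against 9.73, 11.7 and 12.1 FPKM in irradiated prefrontal cortex. The control hippocampi had 2.83, 3.8 and 3.26 FPKM, against 9.09, 12.4 and 12.1 FPKM in control prefrontal cortex. The regions did not overlap, and the difference was -1.28 ± 0.09 in irradiated mice (0.356-fold, adjusted p = 4.14e-05) and -1.50 ± 0.13 in control mice (0.294-fold, adjusted p = 3.09e-05). All 10 striatal markers were lower in hippocampus in both treatments too, with a median difference of -3.11 in irradiated and -3.26 in control mice, and Adora2a, which marks one class of striatal neuron, was near 0 in hippocampus (0.563 to 0.94 FPKM) and at 27.2 to 37.6 FPKM in prefrontal cortex. How far striatal tissue sets the Sv2c level was not tested.

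The promoters of the genes with the largest called differences in each direction in control mice, Stx1a and Sv2c lower and Rims1 and Syn2 higher in hippocampus, are shown as the extremes of the set in either direction. Each runs 5′ to 3′ along the gene's strand from 250 bases before to 50 bases after the RefSeq start (GRCm38.p6, 1-based), with GC boxes (GGGCGG or its reverse complement CCGCCC, the letters bound by Sp1) and the 5-letter core of the cyclic AMP response element (TGACG or CGTCA) in capitals. Stx1a is at chr5:135023232-135023531 on the plus strand, Sv2c at chr13:96132528-96132827 on the minus strand, Rims1 at chr1:22806109-22806408 on the minus strand and Syn2 at chr6:115134652-115134951 on the plus strand.
Stx1a: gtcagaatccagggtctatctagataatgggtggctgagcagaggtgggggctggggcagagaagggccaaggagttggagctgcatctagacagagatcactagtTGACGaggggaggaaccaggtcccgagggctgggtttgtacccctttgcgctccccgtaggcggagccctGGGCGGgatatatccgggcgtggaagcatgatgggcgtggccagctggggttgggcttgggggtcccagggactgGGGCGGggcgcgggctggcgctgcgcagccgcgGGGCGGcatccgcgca
Sv2c: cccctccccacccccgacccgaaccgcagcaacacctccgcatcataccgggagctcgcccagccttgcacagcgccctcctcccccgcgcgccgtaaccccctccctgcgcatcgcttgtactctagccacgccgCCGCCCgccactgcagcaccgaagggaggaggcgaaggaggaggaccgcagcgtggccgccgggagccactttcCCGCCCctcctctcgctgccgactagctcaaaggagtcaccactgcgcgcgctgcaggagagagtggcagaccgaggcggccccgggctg
Rims1: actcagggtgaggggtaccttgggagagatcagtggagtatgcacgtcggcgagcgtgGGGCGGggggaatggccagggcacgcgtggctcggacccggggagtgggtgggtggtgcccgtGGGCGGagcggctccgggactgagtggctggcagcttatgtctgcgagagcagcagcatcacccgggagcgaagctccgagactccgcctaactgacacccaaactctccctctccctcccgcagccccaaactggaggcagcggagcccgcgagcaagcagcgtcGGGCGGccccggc
Syn2: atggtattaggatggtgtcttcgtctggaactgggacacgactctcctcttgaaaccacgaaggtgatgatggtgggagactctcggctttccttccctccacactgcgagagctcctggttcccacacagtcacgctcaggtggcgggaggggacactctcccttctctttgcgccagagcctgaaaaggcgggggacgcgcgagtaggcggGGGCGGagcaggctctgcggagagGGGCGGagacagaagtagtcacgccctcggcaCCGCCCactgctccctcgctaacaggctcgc

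All 4 promoters are rich in G and C, at 66.3% in Stx1a, 71.7% in Sv2c, 69.3% in Rims1 and 62.3% in Syn2, and hold 3, 2, 3 and 3 GC boxes in that order. Among these 4, the genes lower and the genes higher in hippocampus therefore share this feature. RefSeq promoters were found for 26 of the 33 genes, with 36 starts, and 21 of these starts (58.3%) hold a GC box, against 35.7% of 32851 promoters of the same length. The TGACG core occurs at 8 of the 36 starts (22.2%), against 20.8% of all promoters, and of the 4 shown only Stx1a has one. The 2 motifs share no overlapping letters in these 4 sequences. A match of letters is no evidence of binding.

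Among the other vesicle proteins, the synapsins split. Syn2 was higher in hippocampus, with 215, 218 and 213 FPKM in irradiated hippocampus against 178, 178 and 175 FPKM in irradiated prefrontal cortex, and 209, 208 and 225 FPKM in control hippocampus against 162, 171 and 168 FPKM in control prefrontal cortex. Its difference was 0.28 ± 0.05 in irradiated mice (adjusted p = 0.00638) and 0.36 ± 0.06 in control mice (adjusted p = 0.00164). Syn1 was lower in hippocampus, at -0.34 ± 0.09 in irradiated (adjusted p = 0.0241) and -0.31 ± 0.07 in control mice (adjusted p = 0.0063). The ratio of Syn1 to Syn2 was thus 0.946 ± 0.033 in irradiated hippocampus against 1.46 ± 0.16 in irradiated prefrontal cortex, and 0.894 ± 0.032 in control hippocampus against 1.43 ± 0.034 in control prefrontal cortex. Syn3, the scarce synapsin known from young neurons, had 3.77, 4.9 and 3.63 FPKM in irradiated hippocampus against 5.57, 7.22 and 6.21 FPKM in irradiated prefrontal cortex. In control mice it had 3.26, 3.51 and 3.74 FPKM in hippocampus against 5.94, 6.62 and 6.03 FPKM in prefrontal cortex. Its regions did not overlap, and the difference was -0.53 ± 0.12 in irradiated (adjusted p = 0.0137) and -0.68 ± 0.09 in control mice (adjusted p = 0.00034).

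Sv2a, the widespread SV2 protein and the binding site of the antiepileptic drug levetiracetam, was lower in hippocampus in both treatments, at -0.19 ± 0.06 in irradiated (adjusted p = 0.0429) and -0.22 ± 0.06 in control mice (adjusted p = 0.0186). Its relative Sv2b passed in irradiated mice (-0.41 ± 0.06, adjusted p = 0.00232) and had -0.21 ± 0.08 in control mice (adjusted p = 0.0613). Rab3a, the small GTPase that brings vesicles to the active zone, had -0.11 ± 0.07 in irradiated mice (adjusted p = 0.245) and passed in control mice (-0.18 ± 0.06, adjusted p = 0.0425, but 0.0524 with the mouse as a block). Syp and its relative Synpr (synaptoporin, known from hippocampal mossy fibres) differed by -0.01 to -0.08 over the 2 treatments (adjusted p from 0.547 to 0.948), so Syp, the highest gene of the vesicle group, showed no regional difference beyond its spread. Prefrontal cortex of control mouse 1 was the highest library for Syp, at 736 FPKM against 581 to 627 FPKM in the other 11.

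Of the glutamate transporters, Slc17a7 had -0.20 ± 0.08 in irradiated mice (adjusted p = 0.089, but 0.0215 with the mouse as a block) and overlapped between regions in control mice. Slc17a6 had 5.55, 7.6 and 5.84 FPKM in irradiated hippocampus, against 3.45, 3.38 and 4.07 FPKM in irradiated prefrontal cortex. In control mice it had 3.59, 5.23 and 4.03 FPKM in hippocampus, against 3.09, 4.43 and 5.07 FPKM in prefrontal cortex. The regions were apart in irradiated mice and overlapped in control mice. The difference was 0.66 ± 0.12 (1.74-fold, adjusted p = 0.00456) in irradiated and 0.03 ± 0.16 (adjusted p = 0.915) in control mice, and in irradiated mice it passed in each of the 6 fits that left out 1 library. The test of the change between treatments is given with the irradiation comparisons and did not pass. The ratio of Slc17a6 to Slc17a7 was 0.0121 ± 0.0018 in irradiated hippocampus against 0.00605 ± 0.0009 in irradiated prefrontal cortex, and 0.00823 ± 0.002 in control hippocampus against 0.00781 ± 0.0025 in control prefrontal cortex. Thalamus markers summed to 69.1 to 89.6 FPKM in hippocampus against 32.2 to 46.4 FPKM in prefrontal cortex of irradiated mice, and to 70.1 to 87.7 FPKM against 41.5 to 55.9 FPKM in control mice, and their part was not tested.

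All 6 synaptotagmins had negative differences in both treatments, beside 6438 of 12878 genes in irradiated and 6340 of 12923 in control mice. As lower in hippocampus, 3 passed in irradiated and 4 in control mice, beside 15.3% and 14.6% of all genes. Syt2, the fast calcium sensor that in mouse forebrain is known from parvalbumin interneurons, had 6.12, 8.21 and 6.07 FPKM in irradiated hippocampus against 9.09, 10.2 and 11.6 FPKM in irradiated prefrontal cortex. Control mice had 4.4, 4.39 and 5.31 FPKM of Syt2 in hippocampus against 7.68, 9.33 and 9.41 FPKM in prefrontal cortex. Hippocampus was below prefrontal cortex throughout, at -0.54 ± 0.13 in irradiated (adjusted p = 0.0139) and -0.78 ± 0.10 in control mice (adjusted p = 0.000445). Of 10 interneuron markers, 5 passed as lower in hippocampus in irradiated and 4 in control mice, beside 15.3% and 14.6% of all genes. They summed to 1278 to 1315 FPKM in hippocampus against 1349 to 1646 FPKM in prefrontal cortex of irradiated mice. The sums were 1317 to 1340.0 FPKM against 1495 to 1538 FPKM in control mice, with Cck and Sst the highest genes. Pvalb itself had 48, 49.4 and 48.4 FPKM in irradiated hippocampus against 63.9, 53.3 and 66.1 FPKM in irradiated prefrontal cortex. Its regions overlapped in control mice, with 66, 54.1 and 42.6 FPKM against 71.9, 58.6 and 55.4 FPKM. The part of interneurons in the Syt2 difference was not tested.

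Syt5, a calcium-binding synaptotagmin, had 73, 77.5 and 70.1 FPKM in irradiated hippocampus against 109.7, 106 and 106 FPKM in irradiated prefrontal cortex. It had 65.2, 73 and 67.7 FPKM in control hippocampus against 115, 108 and 105 FPKM in control prefrontal cortex. These are tight groups far apart, and the difference was -0.54 ± 0.06 (adjusted p = 0.000366) in irradiated and -0.66 ± 0.07 (adjusted p = 7.48e-05) in control mice. Syt4, which lacks calcium binding in its first calcium domain and is induced by activity, had 47.9, 47.2 and 49.3 FPKM in irradiated hippocampus against 72.1, 63.6 and 72.4 FPKM in irradiated prefrontal cortex. Control mice had 43.4, 48.4 and 48.7 FPKM of Syt4 in hippocampus against 64.7, 72.4 and 67.9 FPKM in prefrontal cortex. The regions of Syt4 were again apart, at -0.52 ± 0.07 (adjusted p = 0.000813) in irradiated and -0.54 ± 0.07 (adjusted p = 0.000424) in control mice. Syt1, the main sensor for fast release, had -0.24 ± 0.08 in irradiated mice (adjusted p = 0.0534, but 0.00899 with the mouse as a block) and passed in control mice (-0.25 ± 0.07, adjusted p = 0.0329). Syt7, the slow sensor of facilitation and asynchronous release, and Syt11, which does not bind calcium, differed by -0.11 to -0.13 and passed in neither.

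In the SNARE group, Snap25 had 1137, 1244 and 1175 FPKM in irradiated hippocampus, against 1604, 1680.3 and 1579.5 FPKM in irradiated prefrontal cortex. It had 1177, 1150.1 and 1226 FPKM in control hippocampus, against 1618, 1709 and 1576 FPKM in control prefrontal cortex. The most abundant gene of the set was thus lower in every hippocampus, at -0.45 ± 0.09 in irradiated (adjusted p = 0.00699) and -0.46 ± 0.07 in control mice (adjusted p = 0.000641). Nsf, the ATPase that recycles SNAREs, went the other way, at 0.30 ± 0.07 in irradiated (adjusted p = 0.0177) and 0.28 ± 0.06 in control mice (adjusted p = 0.00775). Vamp2 and Cplx1 (complexin 1) had -0.15 ± 0.07 and -0.19 ± 0.06 in irradiated mice (adjusted p = 0.161 and 0.0574, the second 0.0249 with the mouse as a block), and passed as lower in hippocampus of control mice, at -0.19 ± 0.06 (adjusted p = 0.0393) and -0.24 ± 0.06 (adjusted p = 0.00945). Vamp1, Cplx2 and Napb (beta-SNAP, which recruits NSF) lay between -0.05 and -0.14 in both treatments and did not pass, save Napb in irradiated mice with the mouse as a block.

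Active zone genes differed in direction. Rims2 (RIM2) and Unc13a (Munc13-1, the priming factor) passed as lower in hippocampus in both treatments, Rims2 at -0.37 ± 0.05 in irradiated (adjusted p = 0.00141) and -0.43 ± 0.09 in control mice (adjusted p = 0.0062), and Unc13a at -0.39 ± 0.10 in irradiated (adjusted p = 0.0254) and -0.36 ± 0.08 in control mice (adjusted p = 0.00868). Bsn had -0.29 ± 0.10 in irradiated mice (adjusted p = 0.0577, but 0.023 with the mouse as a block) and passed in control mice (-0.41 ± 0.13, adjusted p = 0.0354), and Pclo passed in neither. Rims1, which encodes RIM1, the scaffold that ties Rab3 on vesicles to Munc13 and calcium channels, had 73, 79.3 and 76.5 FPKM in irradiated hippocampus, against 47, 104.6 and 88 FPKM in irradiated prefrontal cortex. In control mice it was higher in hippocampus, with 75.4, 68.3 and 77.6 FPKM against 47, 52.5 and 44.8 FPKM in prefrontal cortex. In irradiated mice the prefrontal cortex values of mice 2 and 3 lay above all hippocampi and that of mouse 1 below them, and in control mice the regions were apart. The difference was 0.01 ± 0.25 in irradiated (adjusted p = 0.983) and 0.61 ± 0.08 in control mice (adjusted p = 0.000369). Without the prefrontal cortex of irradiated mouse 1, the difference in irradiated mice was -0.33 (adjusted p = 0.0435 by limma), the opposite direction to control mice. Rims1 passed in irradiated mice in no other fit that left out 1 library, so this call rests on leaving out the 1 low prefrontal cortex library.

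No endocytosis gene passed as lower in hippocampus in either treatment. Synj1, the lipid phosphatase that uncoats vesicles, passed as higher in irradiated mice (0.22 ± 0.07, adjusted p = 0.0414) and had 0.24 ± 0.12 in control mice (adjusted p = 0.16, but 0.0357 with the mouse as a block), while Amph (amphiphysin) had 0.17 ± 0.08 in irradiated (adjusted p = 0.141, but 0.0223 with the mouse as a block) and 0.19 ± 0.07 in control mice (adjusted p = 0.0707). Leaving out each library in turn, 9 of the 16 genes called in irradiated mice passed in all 6 fits, as did 14 of the 19 called in control mice. The count in irradiated mice fell to 10 without the hippocampus of mouse 1, where the count over all genes fell too, from 3758 to 2634.

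A wider list of presynaptic genes was described beside the set. Of 70 further presynaptic genes, 35 passed in irradiated mice, 6 higher and 29 lower in hippocampus, beside 13.9% higher and 15.3% lower over all genes. In control mice 33 passed, 8 higher and 25 lower, beside 15.7% and 14.6% over all genes. The higher calls were thus a smaller share of this list than of all genes, and the lower calls a larger one. Syt6, a further synaptotagmin, had the largest difference, its mean FPKM in hippocampus being 0.189 times that in prefrontal cortex in irradiated (adjusted p = 4.19e-06) and 0.185 times in control mice (adjusted p = 1.94e-06). Rims3, a short RIM that lacks the Rab3-binding part, was at -1.39 ± 0.10 in irradiated (adjusted p = 4.57e-05) and -1.71 ± 0.18 in control mice (adjusted p = 9.72e-05). The 2 Doc2 genes, for high-affinity calcium sensors of spontaneous release, differed in opposite directions: Doc2a was at -1.24 ± 0.10 in irradiated (adjusted p = 8.49e-05) and -1.32 ± 0.08 in control mice (adjusted p = 4.17e-06), and Doc2b at 1.19 ± 0.07 in irradiated (adjusted p = 1.33e-05) and 1.24 ± 0.09 in control mice (adjusted p = 1.28e-05). Doc2b had 24.9, 27.9 and 28.4 FPKM in irradiated hippocampus against 11.3, 11 and 11.4 FPKM in irradiated prefrontal cortex, and 29.2, 28.3 and 29.9 FPKM in control hippocampus against 10.3, 11.7 and 13.5 FPKM in control prefrontal cortex.

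Irradiation was compared within each region. In hippocampus no gene of the set passed the test between irradiated and control mice, and 0% of 12947 genes did. At an unadjusted p under 0.05 there were 6 of 33, 5 higher and 1 lower in irradiated mice, where 10.5% of all genes were under it, 4.7% as higher and 5.81% as lower. The 3 irradiated libraries lay entirely above the controls for 6 genes (Syt2, Slc17a6, Sv2a, Sv2c, Dnm1 and Rab3a) and entirely below for Cplx2, where 7.41% and 8.16% of all genes did so. The difference was positive for 27 of 33 genes and for 47% of all genes tested, with a median of 0.05 against -0.01. With every library scaled to the same total FPKM, the split was 32 of 33 and 71%, since that scaling moved the median of all genes to 0.07 and that of the set to 0.14.

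Syt2 had the smallest p of the set in hippocampus, with 6.12, 8.21 and 6.07 FPKM in irradiated mice against 4.4, 4.39 and 5.31 FPKM in control mice. The groups did not overlap, and the difference was 0.44 ± 0.12 (1.45-fold, adjusted p = 0.475 by limma). Slc17a6 had 5.55, 7.6 and 5.84 FPKM in irradiated against 3.59, 5.23 and 4.03 FPKM in control hippocampus, a difference of 0.47 ± 0.14 (1.48-fold, adjusted p = 0.475 by limma). The lowest irradiated library was just above the highest control library. Beside Slc17a6, which thalamic neurons are known to express, the thalamus markers, 6 of 9 tested with positive differences, summed to 84.6, 69.1 and 89.6 FPKM in irradiated and 70.1, 87.7 and 79.8 FPKM in control hippocampus, with Gbx2 at or near 0 (0 to 0.168 FPKM). These sums overlapped. Ntng1, Lef1 and Rora, 3 of the 9 markers tested, had all irradiated above all control hippocampi, beside 7.41% of all genes. Each had an unadjusted p under 0.05 as higher, beside 4.7% of all genes. Ntng1 had 11.2, 11.2 and 9.2 FPKM in irradiated against 6.29, 7.44 and 8 FPKM in control mice (0.49 ± 0.11, adjusted p = 0.417 by limma). Tcf7l2, Calb2 and Tnnt1 averaged lower in irradiated hippocampus, at 1.5, 30 and 1.35 FPKM against 1.53, 35.1 and 1.55 FPKM. Rora was lower in hippocampus than in prefrontal cortex, averaging 8.66 against 10.5 FPKM in irradiated mice. The part of thalamic tissue in the Slc17a6 difference was not tested.

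Sv2a had 130.6, 129 and 123 FPKM in irradiated against 110.4, 114 and 119 FPKM in control hippocampus, with no overlap and a difference of 0.15 ± 0.05 (1.11-fold, adjusted p = 0.475 by limma). The active zone scaffolds Bsn and Pclo had larger differences, 0.30 ± 0.11 and 0.35 ± 0.14 (both at adjusted p = 0.475 by limma), but control mouse 3 reached into the irradiated range for both. Bsn had 52.3, 53.4 and 50.1 FPKM in irradiated and 35.7, 40.5 and 50.7 FPKM in control hippocampus. Cplx2 (complexin 2, the main complexin of forebrain excitatory neurons) was the gene on the other side, with 303, 339.7 and 354 FPKM in irradiated and 407, 366 and 368 FPKM in control hippocampus, a difference of -0.20 ± 0.08 (adjusted p = 0.475 by limma). The ratio of Cplx1 to Cplx2 was 1.02, 0.909 and 0.829 in irradiated and 0.73, 0.804 and 0.783 in control hippocampus. Snap25, Syp, Syn2, Synpr and Slc17a7 had differences between -0.01 and 0.01 with standard errors of 0.05 to 0.09.

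**Figure D3:**
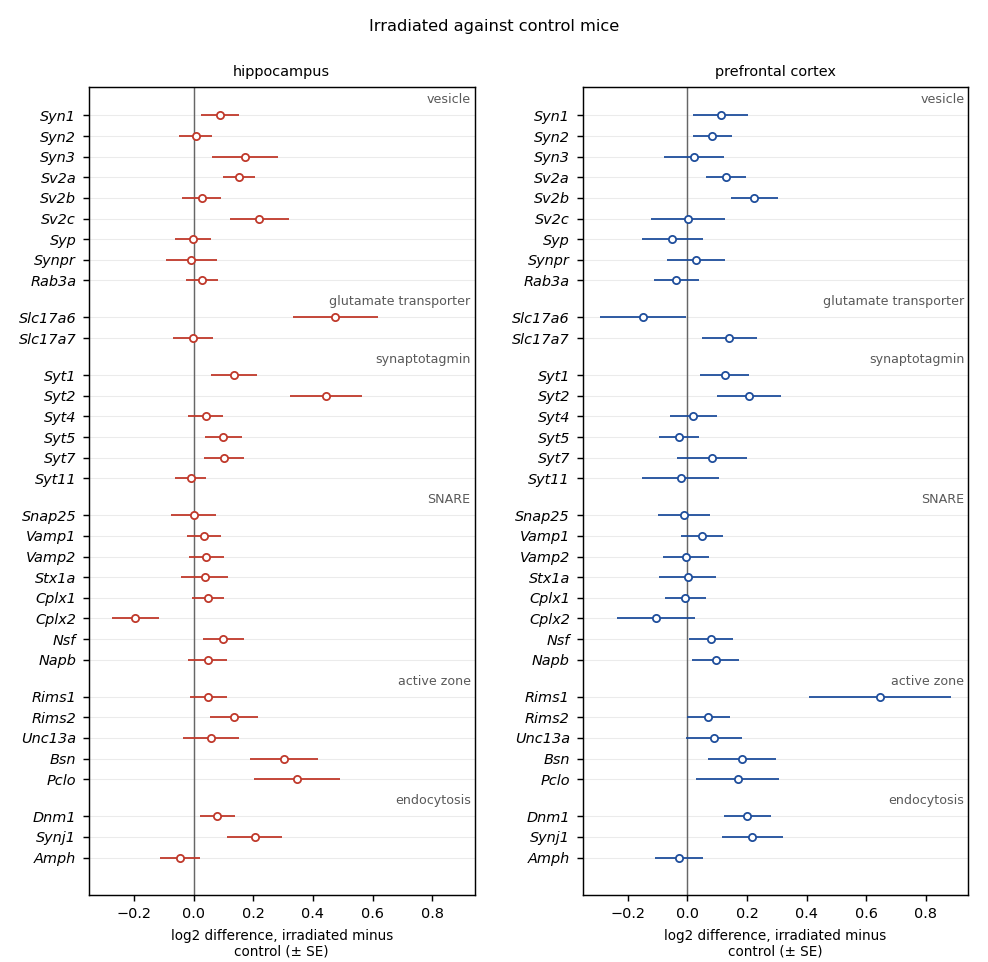
Log2 difference between irradiated and control mice (± SE, n = 3 mice per group) for the 33 genes by role, in hippocampus on the left and prefrontal cortex on the right; all points are open because no adjusted p was under 0.05. Slc17a6 and Syt2 lie farthest right in hippocampus, Rims1 in prefrontal cortex, and most other points lie within 0.25 of 0.

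Single libraries and cell type markers were described beside the set in hippocampus. Hippocampus of irradiated mouse 2 was the highest of the 6 hippocampal libraries for 21 of the 33 genes and the lowest for 0, and control mouse 1 was the lowest for 16. The same libraries had the extreme trends with transcript length: the slope of log2 values per doubling of length was 0.034, 0.076 and -0.011 in irradiated mice 1, 2 and 3, against -0.068, -0.041 and 0.01 in control mice 1, 2 and 3. With that trend removed, 23 of 33 genes had positive differences, beside 45.3% of all genes. The median of the set was then 0.07, against 0.05 before the removal, and that of all genes -0.01. The difference of Bsn was 0.14 and that of Pclo 0.16, while Syt2 had 0.37 and Slc17a6 0.46. Without irradiated mouse 2 the count was also 23 of 33, Syt2 had 0.32 and Slc17a6 0.35. Endothelial markers were positive in 8 of 8 in irradiated hippocampus, beside 47% of all genes. They summed to 58.6 to 66.1 FPKM in irradiated and 29.3 to 40.7 FPKM in control mice. For 7 of 8, all irradiated libraries lay above the controls, beside 7.41% of all genes. Oligodendrocyte markers were negative in 8 of 8, and summed to 2096 to 2221 FPKM in irradiated and 2281 to 2793 FPKM in control mice. None of these markers passed the test, and neuron markers split 6 and 6. Microglial markers were negative in 7 of 8, summing to 196.6 to 215.7 FPKM in irradiated and 218.9 to 227.8 FPKM in control mice, and choroid plexus markers in 8 of 8, with a median of -1.24, none past the test either. Irradiated mouse 2, the highest library for most of the set, was also the one with few choroid plexus transcripts, at 65.2 FPKM. The part of tissue composition in these differences was not tested.

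In prefrontal cortex no gene of the set passed between irradiated and control mice. Of 12729 genes tested 0.00786% passed, which was 1 gene, the small nucleolar RNA Snora81. At an unadjusted p under 0.05 there were 3 of 33, all higher in irradiated mice, where 7.23% of all genes were under it, 2.44% as higher and 4.79% as lower. Irradiated libraries lay entirely above controls for Sv2b, Dnm1, Sv2a and Syn2 and entirely below for none, where 6.25% and 7.44% of all genes did so. The difference was positive for 23 of 33 genes and for 51.2% of all genes tested, with medians of 0.07 and 0.00. Scaled to the same total FPKM, the split was 31 of 33 and 71.6%, and the median of the set 0.14.

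Sv2b had 127, 139 and 129 FPKM in irradiated against 109.9, 122 and 106 FPKM in control prefrontal cortex, and the groups did not overlap. Its difference was 0.22 ± 0.08 (1.17-fold, adjusted p = 0.559 by limma). Dnm1 had 398, 434 and 401 FPKM in irradiated against 376, 356 and 340.0 FPKM in control prefrontal cortex, with no overlap and a difference of 0.20 ± 0.08 (1.15-fold, adjusted p = 0.604 by limma). Sv2a was apart between the groups here as in hippocampus, averaging 145.7 ± 5.94 FPKM in irradiated mice against 133 ± 2.19 FPKM in controls (0.13 ± 0.07, adjusted p = 0.747 by limma). Sv2a and Dnm1 were thus the 2 genes whose irradiated libraries all exceeded the controls in both regions, in samples taken from the same mice. That is 2 of 33, where 1.24% of the 12456 genes tested in both regions did so.

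Rims1 had the largest difference of the set in prefrontal cortex, 0.65 ± 0.24 (1.66-fold, adjusted p = 0.59 by limma). Mice 2 and 3 carried it, with 104.6 and 88 FPKM, against 47 FPKM in irradiated mouse 1 and 44.8 to 52.5 FPKM in control mice. Mouse 1 was thus level with the control mice. Among 6563 genes averaging 10 FPKM or more in prefrontal cortex, Rims1 was the 1 gene at which both of these libraries stood at least 1.5 times above each of the other 4 prefrontal cortex libraries, a description made after its values were seen. The other 4 active zone genes together summed to 151, 194 and 161 FPKM in irradiated and 151, 163 and 144 FPKM in control prefrontal cortex, with irradiated mouse 3 inside the range of the controls. Without irradiated mouse 1, Rims1 passed the test (0.98, adjusted p = 0.0408 by limma), and leaving out any other library gave 0.415 to 0.709 with adjusted p from 0.571 to 0.923. The hippocampi of the same mice had 73, 79.3 and 76.5 FPKM, close to the control hippocampi.

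**Figure D4:**
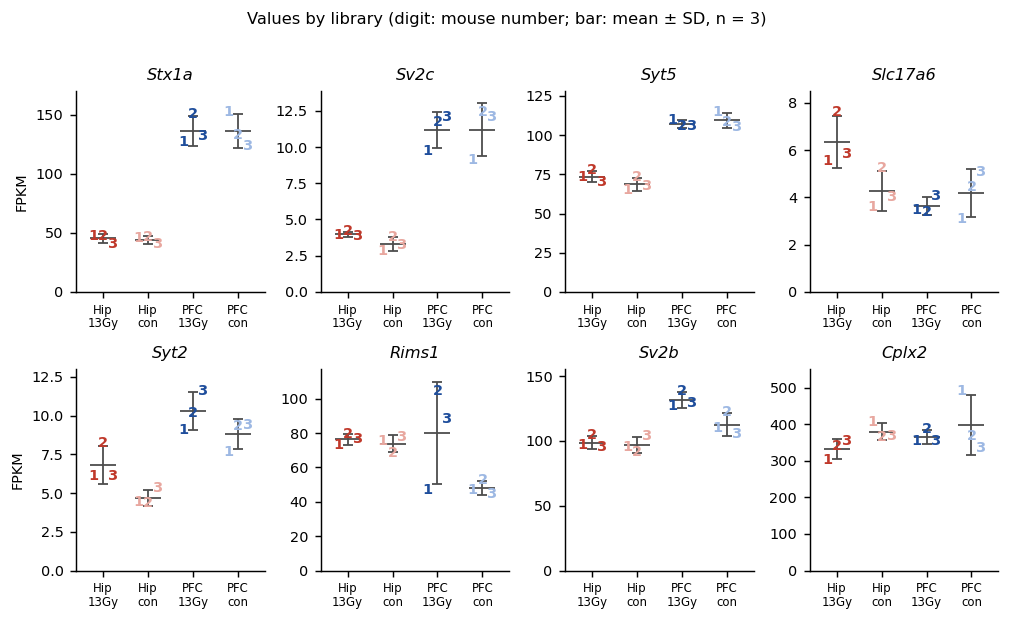
FPKM by library for 8 genes, each digit being the number of the mouse, with the group mean and SD (n = 3), in irradiated and control hippocampus and irradiated and control prefrontal cortex. Stx1a, Sv2c and Syt5 separate by region, the irradiated hippocampi lie above the control hippocampi for Slc17a6 and Syt2 without passing the test, and Rims1 in irradiated mice 2 and 3 lies above the other prefrontal cortex libraries.

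Prefrontal cortex of irradiated mouse 2 was the highest of its region for 16 of the 33 genes, and control mice 1 and 3 were each the lowest for 13. The slope with transcript length was -0.001, 0.079 and 0.01 in irradiated mice 1, 2 and 3, against -0.042, -0.004 and -0.042 in control mice 1, 2 and 3. Removing it left 25 of 33 differences positive, with a median of 0.03, and Rims1 at 0.60. Without irradiated mouse 2 the count was 19 of 33 and the median of the set 0.02. Markers of other cell types moved in prefrontal cortex too, with none past the test. Oligodendrocyte markers were negative in 7 of 8. For 4 of them all irradiated libraries lay below the controls, beside 7.44% of all genes. The 8 oligodendrocyte markers summed to 1458 to 1609.6 FPKM in irradiated against 1712 to 1870.1 FPKM in control mice. Astrocyte markers were negative in 7 of 8 (971 to 1075 FPKM in irradiated and 1042 to 1136 FPKM in control mice), and endothelial markers positive in 8 of 8 (66 to 76.7 FPKM in irradiated and 55.6 to 59.4 FPKM in control mice). Neuron markers were positive in 5 of 12. Control mouse 3 had the highest sums of its region for choroid plexus, hypothalamus and striatal markers, at 65.6, 48.1 and 1095 FPKM. The other 5 libraries reached 6.24, 6.15 and 947.2 FPKM. The part of these cells in the direction of the set was not tested. Control mouse 1 was also the highest for 9 genes, among them Syp, Cplx2 at 492 FPKM, Syt11 at 310.2 FPKM and Syt7 at 60.7 FPKM, where the other 5 libraries reached 389, 257 and 56.4 FPKM.

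The effect of irradiation was not shown to differ between regions for any gene of the set. The test of the difference, hippocampus minus prefrontal cortex, called 0 of 33 genes and 0% of 12894 genes, and 3.27% of all genes had an unadjusted p under 0.05. Slc17a6 had the smallest p of the set, with effects of 0.47 in hippocampus and -0.15 in prefrontal cortex and a difference of 0.62 ± 0.22 (adjusted p = 1 by limma). Its highest prefrontal cortex library was control mouse 3, at 5.07 FPKM. Hypothalamus markers summed to 48.1 FPKM in that library, against 4.31 and 5.79 FPKM in control mice 1 and 2 and 3.86 to 6.15 FPKM in irradiated mice. The part of such tissue in the Slc17a6 difference was not tested. Slc17a6 was followed by Rims1, with effects of 0.05 in hippocampus and 0.65 in prefrontal cortex and a difference of -0.60 ± 0.29, and Sv2b, with 0.03 in hippocampus and 0.22 in prefrontal cortex and a difference of -0.20 ± 0.10, both at an adjusted p of 1 by limma.

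Of the 70 further presynaptic genes, none passed under irradiation in either region, with 4 higher and 1 lower at an unadjusted p under 0.05 in hippocampus, where 4.7% and 5.81% of all genes were so, and 2 higher and 1 lower in prefrontal cortex, where 2.44% and 4.79% of all genes were. The counts of higher genes are thus near the shares over all genes. In hippocampus, Rims4, the other short RIM, had 18, 17.4 and 15.6 FPKM in irradiated against 11.4, 13.7 and 12.8 FPKM in control mice, a difference of 0.40 ± 0.08 (adjusted p = 0.417 by limma). The groups did not overlap. In prefrontal cortex the smallest p were those of Rab3b, a relative of Rab3a (-0.21 ± 0.08), and Cadps, a priming factor of dense-core vesicles (0.16 ± 0.06), both at adjusted p = 0.604 by limma.

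Exons of 11 genes of the set overlap another gene on the opposite strand in the GENCODE M21 annotation, among them Syn2 with Timp4, Syn3 with Timp3, Sv2b, Syt4 and Unc13a, and Bsn overlaps a gene on its own strand. The library kit keeps strand, but no source used here gives the strand setting of the counting, so reads of the overlapping parts may be shared. Stx1a (chr5:135023482-135051100), Sv2c (chr13:95954594-96132577), Rims1 (chr1:22286251-22805994), Slc17a6 (chr7:51622006-51671119) and Syt2 (chr1:134646677-134762593, all mm10) have no such overlap.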

How the data were processed

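RNA from 12 libraries (Trizol, NEBNext Ultra II Directional kit, per the labels' protocols) was aligned by the authors using TopHat and the mm10 build, as the submitters' processing notes list. The values, normalised to transcript length and library size before they were deposited by the authors in 1 table per library, behave as FPKM (RPKM would look the same), although the tables name no unit and no source used here gives the counting tool or annotation. No counts were given, so limma 3.58.1 with trend (R 4.3.3) was fitted to log2(FPKM + 1) of genes averaging 1 FPKM or more in the libraries compared, with Benjamini-Hochberg adjustment. Samples were grouped by region and treatment from the labels. The members and lists were chosen with earlier results of these data known. Library values were given for genes past the threshold (at most the 8 with the largest difference per comparison) and, with fewer than 3, for the 3 with the smallest p, and for a few others named after their values were seen. Of the further presynaptic genes, up to 4 were named by the same order, or the 2 with the smallest p. Not every gene this rule names is reported here. Gene lengths and positions came from GENCODE M21, and length was matched for 95.54% of symbols. Deviations of the libraries of 1 mouse correlated at 0.174, 0.256 and 0.3 in irradiated and 0.29, -0.006 and 0.054 in control mice, which the titles pair across regions. Between treatments, same-numbered libraries are different mice and correlated at 0.141, 0.12 and 0.117 in prefrontal cortex and 0.103, -0.017 and -0.16 in hippocampus. Alternatives were another pseudocount (0.1), no filter, equal totals, removal of the length trend, 1 fit over all 12 libraries, a replicate block, robust moderation and leaving out each library. Fragment numbers are estimates, and no intervals were derived from them.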

Additional observations from a re-analysis of the deposited data

How the results depend on the processing

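No called direction reversed, and no gene of the set passed for irradiation in hippocampus or for the difference between regions under any alternative. In prefrontal cortex, leaving out 1 library gave 0 to 1 genes of the set called (Rims1). With equal totals the median of the set was 0.135 in hippocampus and 0.142 in prefrontal cortex. Over all genes, the count called in hippocampus was 4 with equal totals (Acer2, Crabp2, Ctgf and Lrg1), 3 with robust moderation (Acer2, Crabp2 and Ctgf), 1 with 1 fit over all 12 libraries (Vegfa) and 0 to 1 without 1 library (Snora30 or Syne1). In prefrontal cortex it was 2 without the filter (Gm17660 and Snora81), 0 with the fit over 12 libraries and 1 to 4 without 1 library. For the difference it was 1 without the filter (Hist2h2aa1) and 0 to 2 without 1 library. The cause of these moves was not tested.

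For the regional comparison in irradiated mice, leaving out 1 library gave 10 to 15 genes of the set and 2634 to 3492 of all genes. With all libraries the counts were 16 and 3758. Both were lowest without hippocampus of mouse 1, where Syt2 and Syn3 both had -0.48 (adjusted p = 0.054 and 0.0528 by limma). Snap25 had -0.45 without the filter (adjusted p = 0.054). Of the called genes, 8 of 16 passed under all 13 alternatives in irradiated mice and 14 of 19 in control mice. With the replicate block, the paired fit by mouse, 22 genes of the set passed in irradiated mice, the 16 among them, and 19 in control mice, 18 of them shared (Rab3a lost, Synj1 gained). Under irradiation the block joined same-numbered libraries of different mice, so it was not a paired fit there. It called 0 genes of the set in either region and changed no named call. With 3 mice per group, differences near 0.1 on the log2 scale could not be told from the spread. Under irradiation larger ones did not pass either, up to 0.47 in hippocampus (Slc17a6) and 0.65 in prefrontal cortex (Rims1). The lack of calls under irradiation is therefore no evidence that differences of that size are absent.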
